A study of Rattus norvegicus with 9 samples.

Results

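Immediate-early and dissociation stress genes are the transcripts that a cell makes within minutes of a stimulus or of being handled. They were examined here as a list of 38 transcription factors and other early response genes that are known to rise on tissue dissociation, matched by symbol to the rows of the count table. A row was found for 37 of the 38 among the 28343 rows of the table, Ier2 had none, and all 37 passed the filter on low counts that left 11748 genes for testing. The libraries came from retinal microglia of Dark Agouti rats, an inbred strain. In the diabetic group, streptozotocin, a toxin of insulin-producing cells, was injected at 55 mg/kg at 8 to 10 weeks of age after 12 hours of fasting, and retinas were taken 4 weeks later. Control rats were fasted likewise and received citrate buffer. Diabetic rats were also given 2 units of insulin when glucose passed 30 mmol/l. All rats of both groups had their whole retinas digested with papain, labelled with a CD11b antibody and sorted by flow cytometry, and the RNA was preamplified before sequencing. How long and how warm the digestion was, and whether transcription was blocked during it, is not given in the sources used here. CD11b also marks other myeloid cells, so the sort alone does not separate microglia from them.

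The control group had 5 libraries, with the numbers 1, 3, 4, 5 and 6, and the diabetic group 4, with 1, 2, 4 and 5. They held 6228756 to 11332823 counts each, the lowest in diabetic 4, and their labels name 1 lane of 1 flow cell for all. The microglia markers Cx3cr1, P2ry12, Tmem119, Csf1r, Itgam, Aif1, C1qa and Sall1 were present in every library, while Siglech had no count. Csf1r, the receptor that microglia need to survive, stood at 10521 to 12102 CPM in the controls and 9513 to 10371 CPM in the diabetic libraries. CPM is the count scaled to library size, here with TMM factors that allow for a few abundant genes taking up a library. Border macrophage and monocyte markers were low, with 326 to 678 CPM over 9 genes in the controls and 574 to 1265 CPM in the diabetic libraries, and Ccr2 at 0 in all. Among them Cd163 was higher in every diabetic library than in any control, at 38.8 to 92.0 CPM in the controls and 119 to 262 CPM in the diabetic libraries. The 10 neutrophil markers summed to 302 to 382 CPM and 307 to 371 CPM, with Mpo at 0 in all. Csf3r made up most of each sum, at 301 to 370 CPM in the controls and 277 to 298 CPM in the diabetic libraries. S100a9 was at 0.214 to 5.57 CPM in the controls and 14.8 to 52.9 CPM in the diabetic libraries. S100a8 was at 0 to 0.849 CPM and 1.43 to 10.2 CPM. The similar sums therefore do not show a similar content of neutrophils. Markers of Muller glia and astrocytes summed to 2315 to 2555 CPM in the controls and 1935 to 2119 CPM in the diabetic libraries. Glul, at 1060.4 to 1308.6 CPM over all libraries, and Slc1a3, at 599.5 to 973.7 CPM, made up most of each sum. Rlbp1 was at 24.2 to 60.2 CPM and Gfap at 0.321 to 6.12 CPM over all libraries, each highest in diabetic 1. The sum alone therefore does not measure the content of these glial cells. The part of these other cells in the results was not tested. In sorted bulk RNA, a change in the number of cells of a kind and a change in RNA per cell cannot be told apart. The labels do not say whether each library is 1 animal, so p-values measure the spread between these libraries.

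Immediate-early genes need no newly made protein to be transcribed. Signals from growth factor receptors, calcium or stress reach MAP kinases, which act on factors already bound at the promoters, chiefly serum response factor with its ternary complex partners at CArG boxes and CREB at cyclic AMP response elements. The first products are transcription factors of the AP-1, EGR, NR4A and KLF families. They are accompanied by proteins that end the response, such as MAP kinase phosphatases and the mRNA-decay factor encoded by Zfp36. In microglia the same genes are widely used as a sign that enzymatic dissociation and sorting have activated the cells before lysis.

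The promoters show the 2 best-known entry points of the response, and the stretches below are shown because they hold those elements in members described in the next paragraphs. RefSeq promoters on GRCr8 were found by symbol for 27 of the 38 genes (Ier2 included), and the 250 bases before the annotated start were searched on both strands. The CArG box, searched as CC, then 6 bases that are each A or T, then GG, was in 5 of 27 members (18.5%) and 1.5% of the 33469 promoters in the table. The cyclic AMP response element TGACGTCA was in 6 of 27 members (22.2%) and 1.59% of the 33469 promoters in the table. The EGR site GCGTGGGCG was in 2 of 27 members (7.41%) and 0.478% of the 33469 promoters in the table, and the AP-1 sites TGACTCA and TGAGTCA were in 0 of 27 members (0%) and 4.05% of the 33469 promoters in the table. Matches of different motifs did not overlap in these promoters. Capitals mark CArG boxes in the first 4 sequences and the cyclic AMP response element in the last 4.
Egr1 promoter, chr18:26736958-26737019, plus strand: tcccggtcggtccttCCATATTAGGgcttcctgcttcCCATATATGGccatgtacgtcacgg
Egr2 promoter, chr20:21054500-21054539, minus strand: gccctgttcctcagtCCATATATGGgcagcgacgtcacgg
Zfp36 promoter, chr1:92799116-92799155, minus strand: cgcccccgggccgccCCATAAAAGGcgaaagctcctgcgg
Dusp5 promoter, chr1:262543677-262543726, plus strand: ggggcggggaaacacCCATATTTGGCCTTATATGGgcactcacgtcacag
Dusp1 promoter, chr10:17184714-17184751, plus strand: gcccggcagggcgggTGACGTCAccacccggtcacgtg
Btg2 promoter, chr13:48087869-48087906, minus strand: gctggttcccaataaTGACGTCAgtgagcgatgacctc
Maff promoter, chr7:112792721-112792758, plus strand: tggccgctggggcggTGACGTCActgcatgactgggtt
Ppp1r15a promoter, chr1:105139640-105139677, minus strand: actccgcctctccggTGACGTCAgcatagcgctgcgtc
The Egr1 stretch and the Dusp5 stretch each hold 2 CArG boxes, and those of Dusp5 lie side by side. A match is a description of the letters and not a measurement of binding.

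No early response gene differed between diabetic and control microglia past the threshold. By quasi-likelihood (edgeR, Benjamini-Hochberg adjusted over all genes), 0 of 37 had an adjusted p below 0.05, where 0.0681% of all 11748 genes did (8 genes). At an unadjusted p below 0.05 there was 1 of 37, Dusp6, where 18.9% of all genes were. For 0 of 37 did the 2 groups fail to overlap, where 8.44% of all genes had groups that did not overlap, 4.27% with the diabetic libraries all above the controls and 4.17% with them all below. The smallest adjusted p among the 37 was 0.126. DESeq2's Wald test called 1 of 37, again Dusp6, where it called 5.16% of the genes to which it gave an adjusted p, and it had 6 of 37 at an unadjusted p below 0.05, where 21% of the same genes were. In the authors' deposited table, 0 of 37 had an adjusted p below 0.05, where 2.1% of the genes listed there did, and the smallest was 0.0564 for Hbegf. The plot of fold changes shows how wide the intervals were.

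**Figure D1:**
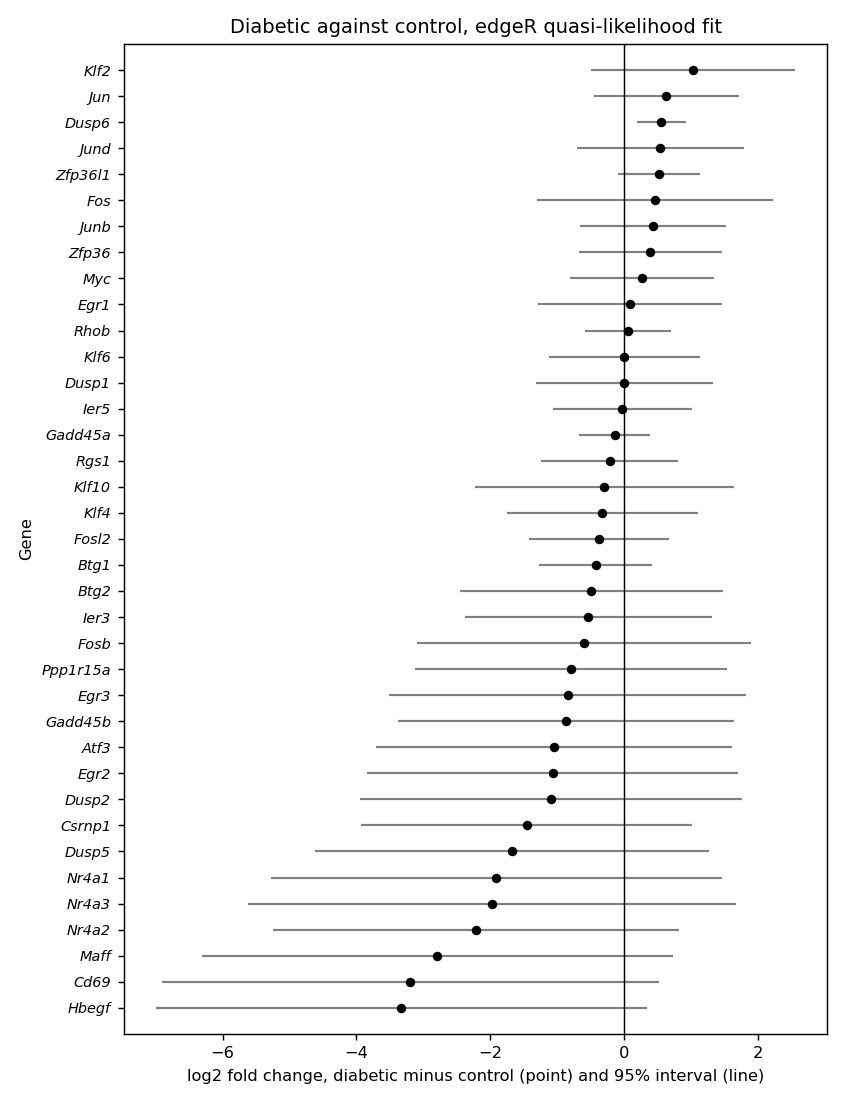
Log2 fold change of diabetic against control for each of the 37 early response genes (point) with its 95% interval (line), from the edgeR quasi-likelihood fit of 5 control and 4 diabetic libraries. Every interval but that of Dusp6 includes 0, and those of Cd69, Hbegf and Nr4a3 are the widest.

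The libraries differed far more within the control group than between the groups. Summed over the 37 genes, the level was 12270.0, 6089, 31585, 10844 and 43626 CPM in controls 1, 3, 4, 5 and 6. It was 20463, 22088, 15379 and 23740.0 CPM in diabetic 1, 2, 4 and 5. All 4 diabetic sums lay inside the control range, below those of controls 4 and 6 and above those of controls 1, 3 and 5. The group means were 20883 ± 16013 CPM (SD, n = 5) and 20417 ± 3616 CPM (SD, n = 4). In shares of raw counts the set took 0.620% to 3.66% of a control library and 1.55% to 2.47% of a diabetic library. The log2 ratio of the means was -0.033, and it was 0.43 without control 6. Within each role group of genes, from AP-1 factors to surface proteins, control 3 had the lowest summed level of the controls and controls 4 and 6 the highest pair.

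**Figure D2:**
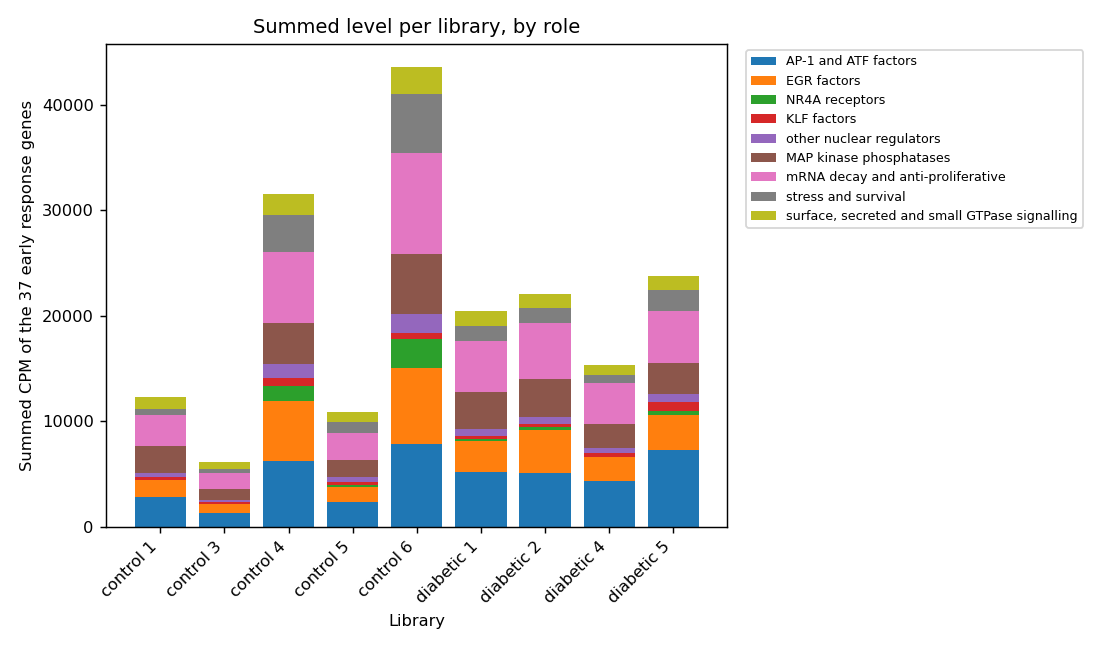
Summed normalised CPM of the 37 early response genes in each library, stacked by the role of the genes. Control 6 reaches 43626 CPM and control 3 reaches 6089 CPM, and the 4 diabetic libraries lie between 15379 and 23740 CPM.

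Single genes followed the same libraries. Control 6 was the highest of the 9 libraries for 25 of 37 genes, where it was the highest for 19.2% of all tested genes. Controls 4 and 6 were the highest pair for 24 of 37, against 14.3% of all tested genes, and the highest pair among the controls for 35 of 37, against 21.3%. Control 3 was the lowest control for 31 of 37 genes, against 20.02% of all tested genes. Diabetic 4 was the lowest diabetic library for 28 of 37 genes and diabetic 5 the highest for 24 of 37, against 26.3% and 28% of all tested genes. Other properties differed in the same libraries. The TMM factors of controls 4 and 6 were 0.927 and 0.839, and the others ran from 1.01 to 1.07. Tmem119 was at 4015, 3304, 2187, 3136 and 1959 CPM in the controls, lowest in controls 4 and 6. Endothelial and mural markers (9 of 10 in the table, all with counts) summed to 251, 156, 109, 92.8 and 105 CPM in the controls, highest in controls 1 and 3, and to 76.6 to 126 CPM in the diabetic libraries. Single markers differed from the sum. Cldn5 was at 57.5, 27.5, 1.93, 0.214 and 0.129 CPM in the controls, and Pdgfrb at 17.8, 11.7, 2.04, 0.642 and 0 CPM. Tek ran only from 58.6 to 86.8 CPM in the controls, and Kdr and Tagln were highest there in control 6, at 36.0 and 5.80 CPM. The part of these properties in the levels of the early response genes was not tested.

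**Figure D3:**
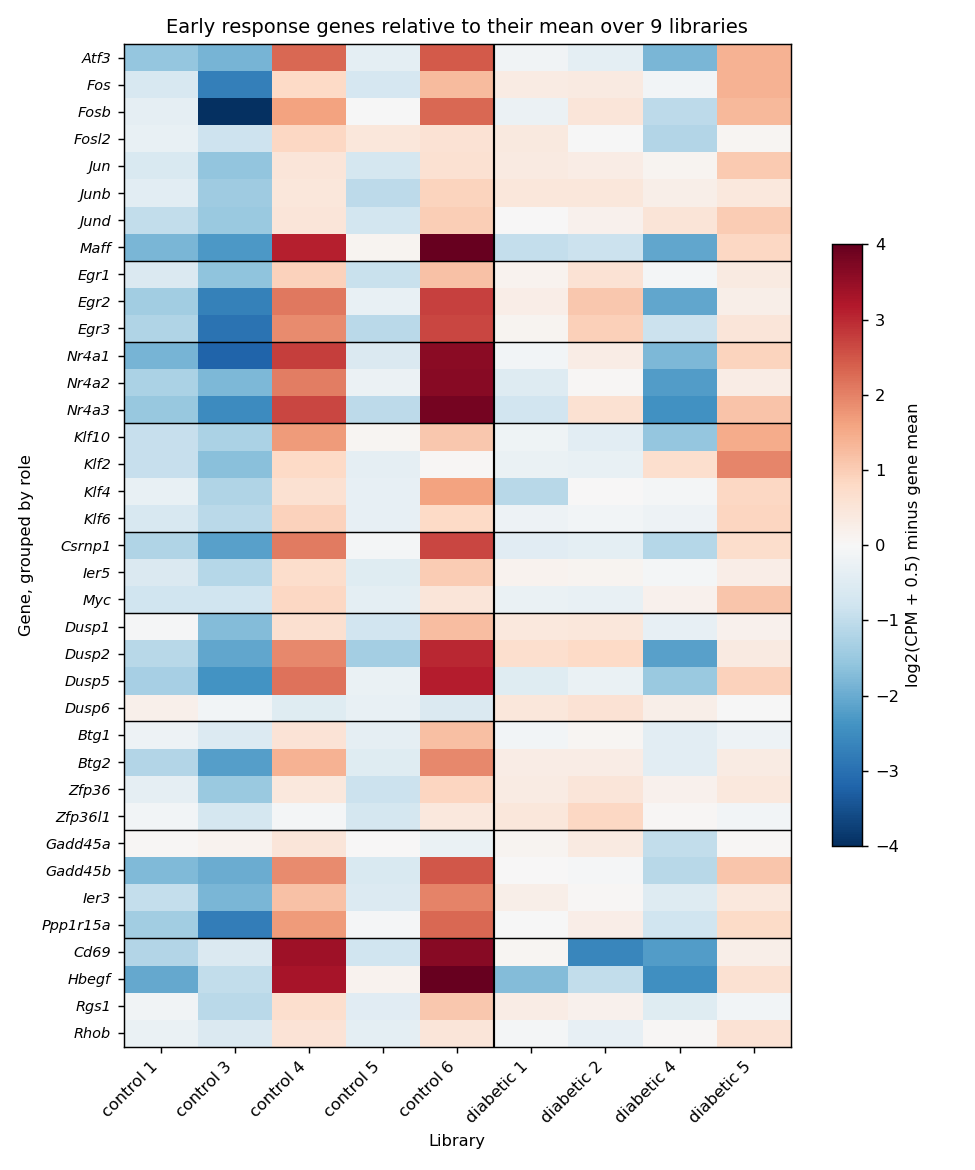
Level of each of the 37 early response genes (rows, grouped by role) in each of the 9 libraries (columns), as log2(CPM + 0.5) minus the mean of that gene over all libraries. Controls 4 and 6 are above the mean in most rows and control 3 is below it in most, and diabetic 5 is above the mean for Fos, Jun and Klf2.

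The AP-1 genes encode the subunits that pair through leucine zippers to bind AP-1 and related sites. Per-library values from here on are in the order controls 1, 3, 4, 5 and 6, then diabetic 1, 2, 4 and 5. Fos, a subunit of AP-1, was at 292, 67.6, 795, 287 and 1102 CPM in the controls and 578, 585, 425 and 1207 CPM in the diabetic libraries. The highest library was diabetic 5 and the lowest control 3, and the groups overlapped. The log2 fold change of Fos (ENSRNOG00000008015, Rnor6 chromosome 6, 109300433 to 109303299, plus strand) was 0.46 (SE 0.75, 95% interval -1.30 to 2.22, adjusted p = 0.766 by quasi-likelihood). It was 0.057 without diabetic 5. Fos is given in full as the namesake of the family, a choice made after its values were seen. Jun (ENSRNOG00000026293, Rnor6 chromosome 5, 114011189 to 114014277, minus strand), its classical partner, was at 1070, 541, 2260, 1004 and 2479 CPM in the controls and 2067, 1995, 1738 and 3317 CPM in the diabetic libraries. Diabetic 5 was again the highest library, and all diabetic libraries were above controls 1, 3 and 5. Its log2 fold change was 0.63 (SE 0.46, 95% interval -0.45 to 1.71, adjusted p = 0.473 by quasi-likelihood). Junb (ENSRNOG00000042838, Rnor6 chromosome 19, 26092974 to 26094756, minus strand), which can restrain Jun, was at 1328, 665, 2429, 868 and 3292 CPM in the controls and 2413, 2408, 2078 and 2360 CPM in the diabetic libraries. The 4 diabetic libraries lay close together, inside a control range of 4.95-fold, and the log2 fold change was 0.43 (SE 0.47, adjusted p = 0.635 by quasi-likelihood). Mean levels of Junb were 1716 ± 1114 CPM (SD, n = 5) and 2315 ± 160 CPM (SD, n = 4).

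The remaining AP-1 and ATF genes were less abundant. Fosb, a Fos relative, was at 12.5, 0.520, 50.4, 15.8 and 81.5 CPM in the controls and 13.6, 22.6, 7.48 and 39.9 CPM in the diabetic libraries, and the 6 counts of control 3 make its value there imprecise. The control range of Fosb was 157-fold and its log2 fold change -0.60 (SE 1.07, adjusted p = 0.786 by quasi-likelihood). Maff, a small Maf protein that lacks a transactivation domain, was at 6.32, 4.42, 210, 25.9 and 394 CPM in the controls and 12.2, 12.9, 5.25 and 42.7 CPM in the diabetic libraries. Controls 4 and 6 stood far above every other library, and diabetic 5 was the next highest. On the log2 scale the difference was -2.79 (SE 1.5, 95% interval -6.31 to 0.73, adjusted p = 0.344 by quasi-likelihood), and Maff lies at ENSRNOG00000012886 on Rnor6 chromosome 7, 120580743 to 120592095. The Maff difference was -1.73 without control 6 and -3.63 without diabetic 5. Atf3, a stress-induced factor, ranged from 21.0 to 418 CPM in controls and from 21.2 to 201 CPM in diabetic libraries. Jund, a further Jun gene, ranged from 12.9 to 74.1 and from 37.7 to 76.2 CPM, with its highest library in diabetic 5. Fosl2 was near the detection limit, at 0.954 to 4.08 and 0.637 to 2.86 CPM on 4 to 38 counts. Of the 8 AP-1 and ATF genes, 4 had a log2 fold change above 0 and 4 below, with a median of 0.027.

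**Figure D4:**
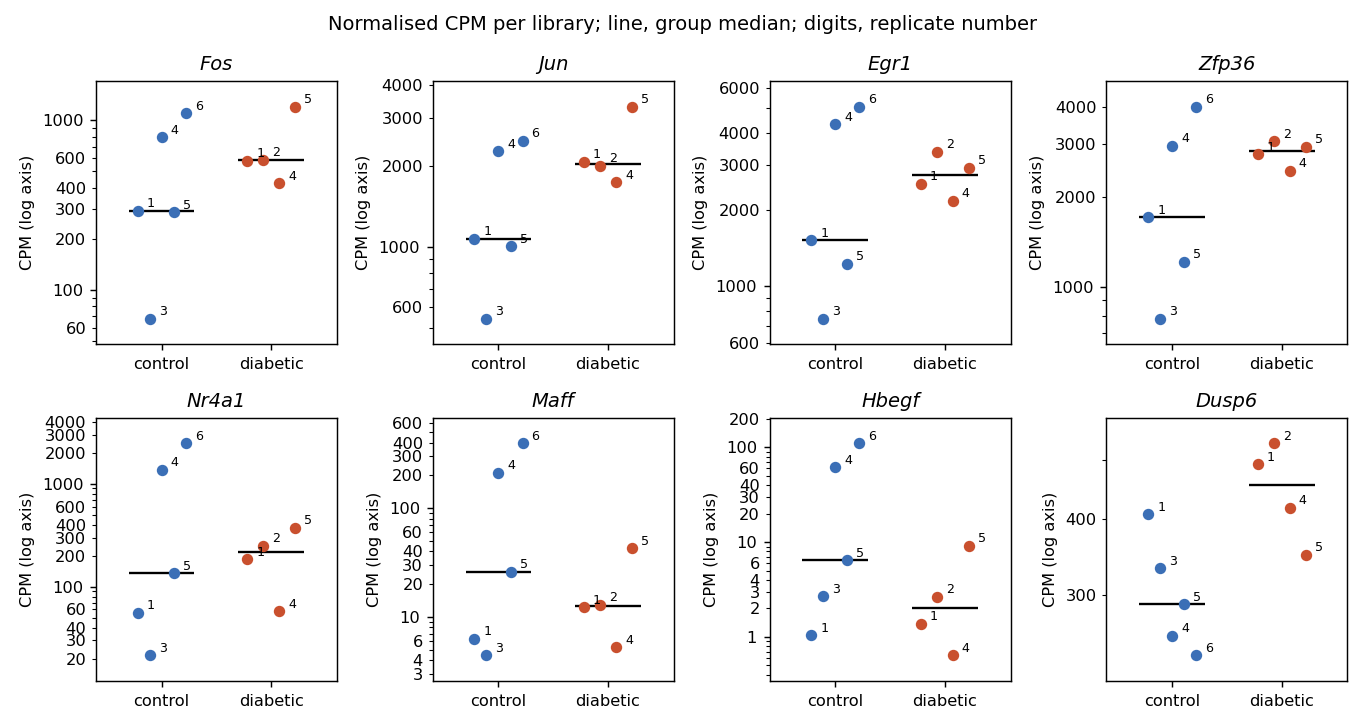
Normalised CPM (log axis) of 8 early response genes in each library, with the group median as a line and the replicate number beside each point. Controls 4 and 6 are the highest controls for all genes shown except Dusp6, for which they are the lowest, and the groups overlap in every panel.

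The EGR genes encode zinc finger factors that SRF activates directly. Egr1 (ENSRNOG00000019422, Rnor6 chromosome 18, 27657628 to 27661429, plus strand), whose promoter stretch above holds 2 CArG boxes, was at 1513, 745, 4330, 1224 and 5080 CPM in the controls and 2529, 3373, 2166 and 2924 CPM in the diabetic libraries. The diabetic libraries lay between controls 1, 3 and 5 on one side and controls 4 and 6 on the other. The log2 fold change was 0.093 (SE 0.59, 95% interval -1.28 to 1.47, adjusted p = 0.946 by quasi-likelihood), and mean levels were 2578 ± 1978 CPM (SD, n = 5) and 2748 ± 519 CPM (SD, n = 4). Egr2 and Egr3 spread wider among controls. Egr2 ran from 42.6 to 1856 CPM in controls and from 65.6 to 584 CPM in diabetic libraries, a log2 difference of -1.06 (SE 1.18, adjusted p = 0.645 by quasi-likelihood) that was -0.27 without control 6. Egr3 ran from 5.12 to 282 and from 23.9 to 85.2 CPM, a log2 difference of -0.84 (SE 1.14, adjusted p = 0.71 by quasi-likelihood). For all 3 EGR genes control 6 was the highest library and control 3 the lowest.

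The NR4A genes encode orphan nuclear receptors that are induced by calcium, cyclic AMP and inflammatory signals, and they separated controls 4 and 6 from all other libraries. Nr4a1 (ENSRNOG00000007607, Rnor6 chromosome 7, 142912316 to 142920216, plus strand) was at 55.4, 21.4, 1368, 135 and 2480 CPM in the controls and 185, 248, 57.3 and 373 CPM in the diabetic libraries. The control range was 116-fold and the diabetic range 6.51-fold. The log2 difference between groups was -1.91 (SE 1.44, 95% interval -5.28 to 1.46, adjusted p = 0.485 by quasi-likelihood). Nr4a3 was at 1.04, 0.260, 27.6, 1.61 and 61.0 CPM in the controls and 2.07, 6.22, 0.318 and 9.20 CPM in the diabetic libraries, with 2 counts in diabetic 4 and 3 in control 3. On the log2 scale the difference was -1.98 (SE 1.56, adjusted p = 0.504 by quasi-likelihood). Nr4a2 ranged from 3.38 to 171 CPM in controls and from 2.39 to 16.2 CPM in diabetic libraries, a log2 difference of -2.21 (SE 1.29, adjusted p = 0.378 by quasi-likelihood). The fold changes of all 3 NR4A genes were negative and none passed the test. Without control 6 they were -0.87 for Nr4a1, -0.83 for Nr4a2 and -0.73 for Nr4a3. The median of Nr4a1 was 135 CPM over controls and 217 CPM over diabetic libraries, the opposite order to the fitted difference.

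Among the KLF genes, zinc finger factors of which Klf2 and Klf4 restrain inflammatory activation in macrophages and endothelium, diabetic 5 was the highest diabetic library for all 4. Klf6 (ENSRNOG00000016885, Rnor6 chromosome 17, 67899033 to 67904674, minus strand), the most abundant, was at 157, 117, 468, 194 and 425 CPM in the controls and 211, 229, 211 and 441 CPM in the diabetic libraries. Diabetic 5 stood apart from the 3 other diabetic libraries and next to controls 4 and 6. The log2 difference between groups was 0.0044 (SE 0.48, adjusted p = 0.999 by quasi-likelihood). Klf2 had the largest positive log2 fold change of the 37 genes, 1.03 (SE 0.65, 95% interval -0.49 to 2.56, adjusted p = 0.412 by quasi-likelihood). It ran from 14.1 to 80.1 CPM in controls and from 37.1 to 180 CPM in diabetic libraries, with 180 CPM in diabetic 5 and 73.7 CPM in diabetic 4 as its highest diabetic values. Without diabetic 5 its log2 fold change was 0.30, below those of Dusp6 (0.66) and Zfp36l1 (0.65) in the same fit. Klf10, a TGF-beta early response gene, and Klf4 ranged from 26.3 to 208 and 3.47 to 27.3 CPM in controls and from 21.3 to 181 and 3.75 to 15.8 CPM in diabetic libraries, and neither passed.

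Among the other nuclear regulators, Ier5, a regulator of heat shock factor activity, was at 294, 199, 713, 312 and 890 CPM in the controls and 483, 473, 411 and 526 CPM in the diabetic libraries. The diabetic libraries stayed within 1.28-fold of each other and the controls within 4.47-fold. On the log2 scale the difference was -0.024 (SE 0.45, adjusted p = 0.984 by quasi-likelihood). Csrnp1, a factor induced through AXIN1 and by cytokines, ran from 28.4 to 838 CPM in controls and from 58.9 to 212 CPM in diabetic libraries, a log2 difference of -1.46 (SE 1.05, adjusted p = 0.468 by quasi-likelihood). Myc, the growth regulator, ran from 25.1 to 80.0 and from 35.7 to 95.7 CPM, with the highest value in diabetic 5. Diabetic 5 was the highest of all 9 libraries for 6 of 37 genes: Fos, Jun, Jund, Klf2, Rhob and Myc. That share is set beside 7.11% of all tested genes.

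The MAP kinase phosphatases, which dephosphorylate the kinases that induce them, held the gene with the smallest p. Dusp6 (ENSRNOG00000023896, Rnor6 chromosome 7, 41475163 to 41479392, plus strand), the cytoplasmic phosphatase for ERK, was at 407, 331, 257, 289 and 238 CPM in the controls and 492, 533, 417 and 349 CPM in the diabetic libraries. Its order of libraries ran against that of the set: controls 4 and 6 were the lowest of all, and 3 of the 4 diabetic libraries were above every control. The log2 fold change was 0.56 (SE 0.17, 95% interval 0.19 to 0.92, adjusted p = 0.126 by quasi-likelihood), with an unadjusted p of 0.00604. Mean levels of Dusp6 were 304 ± 67.4 CPM (SD, n = 5) and 448 ± 81.4 CPM (SD, n = 4). DESeq2's Wald test gave 0.55 with an adjusted p of 0.0483, and the quasi-likelihood adjusted p ran from 0.0572 to 0.286 when 1 library was left out. Dusp1 (ENSRNOG00000003977, Rnor6 chromosome 10, 16970626 to 16973418, plus strand), the nuclear phosphatase whose promoter stretch holds a cyclic AMP response element, was at 2198, 678, 3541, 1337 and 5316 CPM in the controls and 3025, 3085, 1824 and 2538 CPM in the diabetic libraries. All diabetic values lay inside the control range, and the log2 fold change was 0.0028 (SE 0.56, 95% interval -1.32 to 1.32, adjusted p = 0.999 by quasi-likelihood). Dusp2 and Dusp5, nuclear phosphatases of low abundance, ran from 2.08 to 87.8 and 0.694 to 54.9 CPM in controls and from 1.91 to 18.4 and 1.75 to 11.5 CPM in diabetic libraries. Neither passed the test.

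Genes that limit mRNA life or proliferation were among the most abundant of the set. Zfp36 (ENSRNOG00000058388, Rnor6 chromosome 1, 85380095 to 85382607, plus strand), which encodes tristetraprolin and destabilises cytokine mRNAs, was at 1711, 781, 2969, 1214 and 4018 CPM in the controls and 2775, 3068, 2448 and 2941 CPM in the diabetic libraries. The 4 diabetic libraries spread over 1.25-fold and the controls over 5.14-fold. The log2 difference between groups was 0.39 (SE 0.46, 95% interval -0.67 to 1.46, adjusted p = 0.659 by quasi-likelihood). Btg2, an anti-proliferative cofactor of mRNA deadenylation, was at 438, 212, 2606, 711 and 3762 CPM in the controls and 1196, 1213, 739 and 1245 CPM in the diabetic libraries. Diabetic 4 was below the 3 other diabetic libraries, which lay close together, and the log2 fold change was -0.49 (SE 0.84, adjusted p = 0.774 by quasi-likelihood). Zfp36l1, which encodes a related decay factor, was at 175, 118, 182, 116 and 253 CPM in the controls and 260, 337, 195 and 175 CPM in the diabetic libraries. Only diabetic 1 and 2 were above every control, and its log2 fold change was 0.52 (SE 0.27, 95% interval -0.093 to 1.13, adjusted p = 0.323 by quasi-likelihood). Btg1, the relative of Btg2, ran from 460 to 1549 CPM in controls and from 509 to 722 CPM in diabetic libraries.

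The 4 stress and survival genes all had negative log2 fold changes and none passed. Ppp1r15a (ENSRNOG00000020938, Rnor6 chromosome 1, 101511901 to 101514974, minus strand), which restores protein synthesis by directing a phosphatase to eIF2-alpha, was at 212, 81.8, 1822, 542 and 2739 CPM in the controls and 553, 670, 321 and 944 CPM in the diabetic libraries. Control 6 was the highest and control 3 the lowest, and the log2 fold change was -0.79 (SE 0.99, adjusted p = 0.682 by quasi-likelihood). Ier3, a survival gene of the NF-kappaB response, ran from 172 to 2417 CPM in controls and from 426 to 812 CPM in diabetic libraries. Gadd45b, an activator of stress kinases, ran from 16.6 to 381 and from 30.7 to 146 CPM. Gadd45a, its p53-regulated relative, varied little among controls (35.7 to 60.6 CPM), and control 6 was the lowest of them, with 21.5 CPM in diabetic 4 as the lowest value overall.

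Surface and signalling products held the 2 largest negative fold changes, those of Hbegf and Cd69. Hbegf (ENSRNOG00000018646, Rnor6 chromosome 18, 29329764 to 29340403, minus strand), a membrane-bound ligand of the EGF receptor, was at 1.04, 2.69, 61.7, 6.42 and 111 CPM in the controls and 1.38, 2.65, 0.637 and 9.20 CPM in the diabetic libraries. There were 574 and 861 counts in controls 4 and 6 and no more than 92 in any other library. Its log2 fold change was -3.33 (SE 1.57, 95% interval -7.00 to 0.34, adjusted p = 0.297 by quasi-likelihood). Cd69 (ENSRNOG00000056783, Rnor6 chromosome 4, 163041141 to 163049084, minus strand), a lectin-like early activation antigen, was at 0.849, 1.56, 32.0, 1.28 and 38.2 CPM in the controls and 2.76, 0, 0.159 and 3.10 CPM in the diabetic libraries. The count of 0 in diabetic 2 allows up to 0.306 CPM for counting error alone (3 counts), and diabetic 4 had 1 count. On the log2 scale the difference was -3.20 (SE 1.59, adjusted p = 0.315 by quasi-likelihood). Rgs1, a brake on G protein signalling from chemokine receptors, was at 881, 457, 1535, 701 and 2039 CPM in the controls and 1194, 1095, 680 and 895 CPM in the diabetic libraries. The groups overlapped, and its log2 fold change was -0.22 (SE 0.44, adjusted p = 0.815 by quasi-likelihood). Rhob, an endosomal small GTPase, varied least of the 4, from 182 to 401 CPM in controls and from 220.0 to 409 CPM in diabetic libraries.

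The sign of the group difference depended on which summary was used. Of the 37 fitted log2 fold changes, 13 were above 0 and 24 below, with a median of -0.38, beside 50.3% above 0 and a median of 0.0017 for all genes tested. The diabetic median was above the control median for 30 of 37 genes, beside 51.4% of all tested genes. Without control 6, 21 of 37 fold changes were above 0 and their median was 0.099. Without control 4 the median was -0.22, and without control 3 it was -0.58. For 22 of 37 genes all diabetic libraries lay inside the control range, beside 23.8% of all tested genes.

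Early response genes varied more between libraries of a group than most genes did. The SD of log2 CPM over the controls had a median of 1.28 for the 37 genes and 0.26 for all tested genes. Over the diabetic libraries the medians were 0.66 and 0.21. The control SD was the larger for 34 of 37 genes, beside 60.5% of all tested genes, and the exceptions were Fosl2, Klf2 and Gadd45a. A control SD above 1, on the log2 scale, was found for 23 of 37 genes and 4.48% of all tested genes. A diabetic SD above 1 was found for 13 of 37 and 2.74%. The highest control was at least 10 times the lowest for 18 of 37 genes (3.02% of all tested genes), and the same held among diabetic libraries for 3, which were Nr4a3, Hbegf and Cd69. Junb had the smallest diabetic SD, 0.10, against 0.97 over controls, and Nr4a3 had the largest control SD, 3.03. The difference in spread between the groups was not tested, and without control 3 the difference of the medians fell from 0.62 to 0.38.

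**Figure D5:**
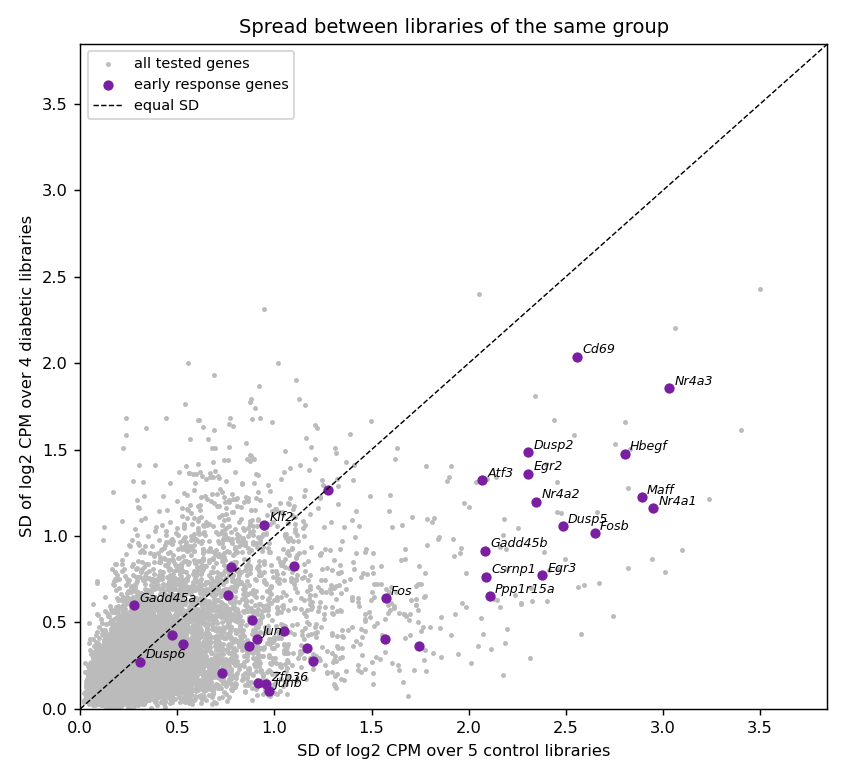
SD of log2 CPM over the 4 diabetic libraries (vertical) against the SD over the 5 control libraries (horizontal) for each tested gene (grey) and each early response gene (purple), with a dashed line at equal SD. Most early response genes lie below the line, and Nr4a3, Nr4a1, Maff and Hbegf lie farthest to the right among them.

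Levels of different genes were compared per unit of transcript length. In the authors' assemblies the TPM of all transcripts overlapping the reference exons of a gene, on either strand, was summed, which was possible for 33 of the 37 genes. The median over the 9 libraries was 1311 TPM for Zfp36, 1018 for Junb, 937 for Dusp1, 823 for Egr1 and 449 for Fos. The ranges over libraries overlapped between all 5, from 343 to 1733 TPM for Zfp36 and from 22.3 to 1085 TPM for Fos. Within every library, however, Zfp36 was above Dusp1, and Zfp36, Dusp1 and Egr1 were each above Fos. The other pairs among the 5 changed order between libraries. Cd69, Hbegf and Nr4a2 had a median of 0 TPM, listed so where no transcript was assembled. Nr4a1 reached 999 and 1289 TPM in controls 4 and 6, levels of the same size as those of Dusp1 there (1191 and 1640 TPM), while its range in the diabetic libraries was 34.0 to 287 TPM. Not every gene had the same order of libraries in TPM as in CPM. Jun was at 253, 56.3, 230, 221 and 229 TPM in the controls, highest in control 1. Rgs1 was at 439, 317, 863, 383 and 346 TPM in the controls, although its CPM was highest in control 6. The reason was not tested.

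Genes up- and downstream of the set were compared by lists. The counts of each list are to be read beside the shares over all tested genes. Of these, 18.9% had an unadjusted p below 0.05 by quasi-likelihood and 50.3% a log2 fold change above 0. For the MAP kinase and SRF pathway, which transmits the signal, 0 of 22 tested genes passed (7 at an unadjusted p below 0.05), 3 log2 fold changes were above 0 and 19 below, and their median was -0.17. Rps6ka3, the kinase RSK2 that ERK activates, was at 48.1, 46.9, 59.8, 57.1 and 61.5 CPM in the controls and 37, 33.6, 36.3 and 29.4 CPM in the diabetic libraries. All diabetic libraries were below all controls, as for 4.17% of all tested genes. The log2 difference of Rps6ka3 was -0.68 (SE 0.12, adjusted p = 0.0608 by quasi-likelihood). For Mkl1, a coactivator of SRF, the log2 difference was 0.43 (SE 0.14, adjusted p = 0.142 by quasi-likelihood). For AP-1 partners outside the set, 0 of 12 tested genes passed (5 at an unadjusted p below 0.05), 6 log2 fold changes were above 0 and 6 below, and their median was -0.0085. For Maf, a large Maf factor of macrophages, the log2 difference was 0.68 (SE 0.17, adjusted p = 0.0991 by quasi-likelihood).

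For feedback inhibitors outside the set, among them Sprouty and NF-kappaB inhibitor genes, 0 of 13 tested genes passed (3 at an unadjusted p below 0.05), 2 log2 fold changes were above 0 and 11 below, and their median was -1.09. Dusp10, a phosphatase for stress kinases, had -1.40 (SE 0.47, adjusted p = 0.158 by quasi-likelihood) and Dusp16 had -1.53 (SE 0.58, adjusted p = 0.208 by quasi-likelihood) on the log2 scale. For the secondary inflammatory response, 0 of 18 tested genes passed (0 at an unadjusted p below 0.05), 4 log2 fold changes were above 0 and 14 below, and their median was -0.88. Its summed level was 2834, 2051, 27497, 4374 and 49002 CPM in the controls and 5145, 6158, 3256 and 7984 CPM in the diabetic libraries, with the same 2 controls on top as for the early response genes. Cd274 and Icam1, an immune checkpoint ligand and an adhesion molecule, had log2 fold changes of -3.16 (SE 1.54, adjusted p = 0.308 by quasi-likelihood) and -2.35 (SE 1.19, adjusted p = 0.323 by quasi-likelihood). For heat shock genes, 0 of 8 tested genes passed (1 at an unadjusted p below 0.05), 2 log2 fold changes were above 0 and 6 below, and their median was -0.58. The list held 12 genes, of which 11 had a row, and Hspa1a, Hspa8, Hsp90aa1 and Hspe1 were not tested. The sum over the 11 was 1241, 1278, 5552, 1666 and 4434 CPM in the controls and 1397, 1399, 1350.0 and 3117 CPM in the diabetic libraries. It was highest in control 4 and, among diabetic libraries, in diabetic 5. With these genes missing, the counts and the sum do not stand for all heat shock genes. Hspd1 and Dnaja1, mitochondrial and cytosolic chaperone genes, had log2 fold changes of -0.55 (SE 0.25, adjusted p = 0.260 by quasi-likelihood) and -1.38 (SE 0.64, adjusted p = 0.292 by quasi-likelihood). Over these 5 lists the quasi-likelihood test thus called no gene at an adjusted p below 0.05.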

How the data were processed

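RNA-seq was measured in 9 libraries, grouped by their treatment labels. The authors deposited raw counts per gene symbol and, per the submitters' processing notes, worked on Rnor_6.0 with bcl2fastq 2.18.0.12, TopHat2 2.0.14, StringTie 1.2.4 and edgeR. Neither the counting program nor its strand option is named in the sources used, so reads of overlapping, antisense or near-identical genes cannot be told apart. The log2 fold changes, p-values and adjusted p-values of the authors' deposited table come without a stated model. TPM per assembled transcript is from StringTie 1.2.4, per the file headers, and the spans of reference transcripts on Rnor6 come from the same files. No molecular identifiers are named, so counts are reads.

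Genes were filtered with filterByExpr (minimum count 10, minimum total 15), TMM-scaled and put through the robust quasi-likelihood F test of edgeR 4.0.16 in R 4.3.3 over all genes, with no covariate and an adjusted p threshold of 0.05. The standard error is the log2 fold change divided by the square root of F, and the 95% interval uses its t distribution. SDs are of log2 CPM with a prior count of 2. The common biological coefficient of variation was 0.251. Depth sets precision: 10 of the 37 genes had under 50 counts in at least 1 library. No 2 libraries agreed within sampling noise (lowest chi-square per degree of freedom 11.7). The test was tried on simulated data.

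The gene set, its role groups and all lists were chosen with earlier results of these data known. Values in every library are given for the 5 genes of smallest p, the 8 of highest mean CPM, the 5 of largest control SD and the most abundant gene of each role group, and for Fos; from each pathway list the 2 genes of smallest p are named, except for 1 that is not reported here. Alternatives were DESeq2 1.42.0, RLE factors, no factors, no filter, each library left out, and a replicate block.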

Additional observations from a re-analysis of the deposited data

Results flagged for a closer look

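Values of each early response gene, and their sum, were checked for 1 library standing apart from the rest of its group, in 76 groups of 4 or 5 libraries. There were 3 such cases, and chance marks about 1 in 20 groups. Junb was at 2078 CPM in diabetic 4, below the 2360 to 2413 CPM of the other diabetic libraries. Btg2 was at 739 CPM in diabetic 4, below 1196 to 1245 CPM. Klf6 was at 441 CPM in diabetic 5, above 211 to 229 CPM. Diabetic 4 has the lowest total count of the series.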

How the results depend on the processing

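No early response gene was called by the quasi-likelihood test under RLE factors, no factors, no filter, the replicate block or with any 1 library left out, and DESeq2 called 1 (Dusp6). Of 518 results of single genes under alternatives, 474 kept their direction and side of the threshold, 1 became significant and 43, from 19 genes, changed sign. Over all genes the count of 8 calls became 598 by DESeq2, 29 without factors, 42 without a filter, 0 with the replicate block (1150 at an unadjusted p below 0.05) and 0 to 75 with 1 library left out. The fits without control 4, without diabetic 1 and without diabetic 4 called 0, and had 1686, 1793 and 1528 genes below 0.05 unadjusted. Dropping the factors moved the median of all genes from 0.0017 to 0.12 and turned 28 of 29 calls higher, where 5 of 8 were. The median of the 37 early response genes was below 0 in every setting but 2: 0.099 without control 6 and 0.15 with the replicate block. The log2 ratio of their summed level ran from -0.27 to 0.43 with 1 library left out and was 0.16 without factors. Groups did not overlap for 0 to 1 early response genes with 1 library left out, where 10.1% to 14.5% of all tested genes had groups that did not overlap, and the difference in median SD ran from 0.38 to 0.81. Signs turned in DESeq2 for Dusp1 (-0.0020) and Klf6 (-0.0022) and without factors for Ier5 (0.15). The labels give both groups libraries numbered 1, 4 and 5, and same-numbered libraries had correlations of deviations of 0.20, -0.11 and 0.016 over genes. Correlations of differently numbered pairs were not computed, so these values cannot decide whether same-numbered libraries share more than a number. With the replicate block, signs turned for Egr3 (0.23), Atf3 (0.15), Dusp2 (0.26), Ier3 (0.22), Ier5 (0.24), Nr4a1 (0.14), Btg2 (0.21), Gadd45b (0.45) and Ppp1r15a (0.019). That fit has 6 libraries, and in it Maff was at -0.75. With 1 library left out, log2 fold changes that changed sign ran from -0.77 to 0.15 for Btg2, from -0.24 to 0.43 for Dusp1, from -1.39 to 0.020 for Dusp2, from -0.14 to 0.49 for Egr1, from -1.15 to 0.080 for Egr3, from -1.11 to 0.099 for Fosb, from -0.30 to 0.070 for Gadd45a, from -0.80 to 0.19 for Ier3, from -0.22 to 0.32 for Ier5, from -1.16 to 0.23 for Klf10, from -0.74 to 0.27 for Klf4, from -0.33 to 0.29 for Klf6, from -0.15 to 0.58 for Myc, from -0.42 to 0.11 for Rgs1 and from -0.14 to 0.22 for Rhob. The cause of these sign changes was not tested; the adjusted p-values of the genes concerned stayed above the threshold throughout.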

Other observations

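Ratios of early response genes to each other, taken from raw counts within a library, differed between libraries. Nr4a1 counts per 100 Fos counts were 19.0, 31.7, 172, 47.0 and 225 in the controls and 32.0, 42.5, 13.5 and 30.9 in the diabetic libraries. Nr4a1 counts exceeded Fos counts in controls 4 and 6 and were fewer in every other library. Maff counts per 100 Fos counts were 2.16, 6.54, 26.4, 9.03 and 35.8 in the controls and 2.12, 2.20, 1.24 and 3.54 in the diabetic libraries. Diabetic 5, with the highest Fos level of the series, had 3.54 where control 6 had 35.8. Egr2 counts per 100 Egr1 counts were 6.97, 5.71, 27.9, 18.5 and 36.5 in the controls and 13.3, 17.3, 3.03 and 11.2 in the diabetic libraries. Gene length and mapping differ between the genes of a pair, so only libraries can be compared within a ratio. These ratios were chosen after the values were seen and were not tested.

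The authors' deposited table gave Klf2 a log2 fold change of 1.17 (adjusted p = 0.135), Zfp36l1 0.67 (adjusted p = 0.116) and Dusp6 0.66 (adjusted p = 0.126). It gave Maff -2.55 (adjusted p = 0.117), Cd69 -3.02 (adjusted p = 0.117) and Hbegf -3.14 (adjusted p = 0.0564). Its median over the 37 genes was -0.23 and over all its genes 0.12. The corresponding medians here were -0.23 and 0.12 in the fit without factors, and -0.38 and 0.0017 in the main fit with TMM factors.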
